A study of Homo sapiens with 4 samples.

Results

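Polyamines are small positively charged molecules that growing cells make in large amounts. The 10 genes described here encode the enzymes that make and break them and the regulators of the first enzyme. The set holds ornithine decarboxylase (ODC1), S-adenosylmethionine decarboxylase (AMD1), spermidine synthase (SRM), spermine synthase (SMS), the antizymes OAZ1 and OAZ2, the antizyme inhibitor AZIN1, spermidine/spermine acetyltransferase (SAT1), polyamine oxidase (PAOX) and spermine oxidase (SMOX). They were taken by name, as the table rows whose Ensembl ID carries one of these symbols. All 10 were found among 64252 listed IDs, and all 10 were among the 18817 genes with enough counts to test.

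RNA was sequenced from J.gamma1, a derivative of Jurkat (a human line of T-cell acute lymphoblastic leukaemia, T-ALL) that is known for lacking PLCG1, a signalling enzyme. One group of 2 libraries came from cells kept for 48 h in 10 µM FB23-2, and the other group of 2 came from cells kept for 48 h in the solvent DMSO at under 0.1%. FB23-2 inhibits FTO, a demethylase that takes N6-methyladenosine marks off RNA. The study asked which transcripts FB23-2 changes in T-ALL cells, with the transcription factor MYC named in its title. Replicates of a group are independent biological samples of 1 cell line, so p values measure the spread between these cultures.

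ODC1 makes putrescine from ornithine, and AMD1 supplies the aminopropyl donor with which SRM makes spermidine and SMS makes spermine. Antizymes bind ODC1 and hand it to the proteasome, and AZIN1, an inactive relative of ODC1, takes antizyme away from it. SAT1 acetylates spermidine and spermine, PAOX oxidises the acetylated forms, and SMOX oxidises spermine directly. Spermidine is also the source of hypusine, the modified lysine of the translation factor EIF5A. MYC is known to bind and induce ODC1 and several other genes of the pathway.

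Levels are given in CPM, in which each count is divided by the effective size of its library. Library totals were 37804516 and 33983246 counts with FB23-2 and 24615359 and 34897961 counts in control. Marker levels in this paragraph are counts divided by the library total alone. The 13 T-lineage markers looked at were all at 1 CPM or more in every library, with a summed level of 1900 and 1860 CPM with FB23-2, against 2270 and 2270 CPM in control. Within this list TRAC (38.5 and 36.8 CPM with FB23-2, against 23.2 and 21.7 CPM in control), PTPRC, TRBC1 and CD28 went the other way, higher in both FB23-2 libraries. Of 5 B-lineage markers, CD79A stood at 45.0 and 43.1 CPM with FB23-2, against 43.3 and 38.4 CPM in control. The 5 myeloid markers summed to at most 2.46 CPM and the 4 erythroid markers to at most 0.53 CPM in any library. The 4 epithelial and fibroblast markers summed to 5.74 and 5.8 CPM with FB23-2, against 7.43 and 7.14 CPM in control. Most of that was COL1A1, at 4.47 and 4.56 CPM with FB23-2, against 3.9 and 3.73 CPM in control, and COL1A2 had 7 and 0 counts with FB23-2, against 62 and 74 counts in control. The part of these markers in the results was not tested. PLCG1 RNA was present, at 298 and 297 CPM with FB23-2, against 259 and 262 CPM in control, which says nothing about the protein. Across all tested genes, 42.1% changed at an edgeR adjusted p under 0.05, so a call by itself was common in this comparison. CPM is relative to the whole library, and in bulk RNA fewer cells with a transcript and less of it per cell cannot be told apart.

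Genes of polyamine synthesis were lower with FB23-2, and the antizymes and, of the 3 genes of catabolism, SAT1 and SMOX were higher. All 4 synthesis enzymes and AZIN1 fell, 5 of the 10 genes, against 20.3% of all tested genes that fell. OAZ1, OAZ2, SAT1 and SMOX rose, 4 of the 10, against 21.8% of all tested genes that rose. PAOX did not pass. Only 2 of the 10 moved by 2-fold or more, SAT1 upward and SRM downward, against 7.5% of all tested genes that passed at that size (3.03% higher and 4.46% lower). The median log2 fold change of the 10 genes was -0.17, against 0.00 for all tested genes. For 9 of the 10 the libraries of the groups did not overlap in CPM, which was also true of 70.8% of all tested genes.

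**Figure D1:**
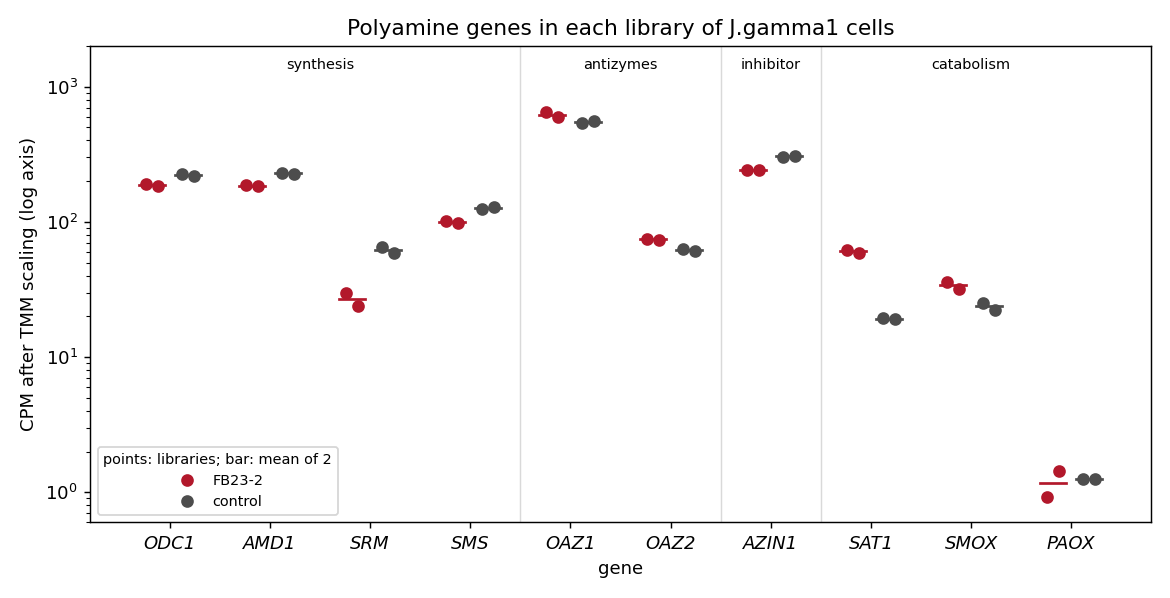
Level of each polyamine gene in each library, in CPM after TMM scaling on a log axis. Points are libraries and bars are means of 2, FB23-2 left of control. The FB23-2 points lie below the control points for the 4 synthesis genes and AZIN1 and above them for OAZ1, OAZ2, SAT1 and SMOX, while those of PAOX lie on both sides.

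SRM, spermidine synthase, had the largest fall of the set. It stood at 29.9 and 23.8 CPM with FB23-2, against 65.4 and 58.8 CPM in control. Both FB23-2 libraries were well under the lower control library. The log2 fold change came to -1.20 ± 0.11 (SE, edgeR adjusted p = 6.32e-05), or 43.5% of the control level, and it ranked 818th from the lowest of 18817 tested genes. Relative to their mean, the FB23-2 libraries differed from each other more than for the other synthesis genes (26.9 ± 4.26 CPM, SD, n = 2, against 62.1 ± 4.68 CPM in control).

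SMS, spermine synthase, stood at 100.8 and 98.8 CPM with FB23-2, against 125.3 and 129.3 CPM in control. The groups did not overlap. Its log2 fold change was -0.35 ± 0.05 (edgeR adjusted p = 2.97e-04). AMD1, which decarboxylates S-adenosylmethionine, stood at 186.5 and 183.5 CPM with FB23-2, against 230.1 and 226.6 CPM in control. The fall was of like size (-0.30 ± 0.04, edgeR adjusted p = 2.81e-04), and libraries of 1 group differed by a few CPM at most. ODC1, the rate-limiting enzyme, stood at 189.5 and 185.4 CPM with FB23-2, against 225.8 and 219.2 CPM in control. It fell by the least of the 4, to 84.3% of the control level (-0.25 ± 0.04, edgeR adjusted p = 0.00115).

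The ODC1 fall was small beside that of MYC, which stood at 62.5 ± 5.64 CPM with FB23-2, against 367 ± 1.08 CPM in control (SD, n = 2 each, log2 fold change -2.55 ± 0.06, edgeR adjusted p = 3.77e-08). MYC and its partner MAX bind the sequence CACGTG, a palindrome called an E-box, so promoter windows of the polyamine genes were searched for it. RefSeq windows (build GRCh38.p14, 250 bases before to 50 after a transcript start) were matched for 7 of the 10 genes (not AZIN1, PAOX or SMOX), in 10 windows. CACGTG was found in 2 of the 10 windows, one of ODC1 and the one of SRM, against 7.26% of all 35116 windows. By gene it was found in 2 of the 7 matched, against 8.77% of 27305 genes. The AMD1 windows that start at 110874534 and 110874535 are nearly the same stretch. The ODC1 window held 2 copies, and 0.664% of all windows held 2 or more. The set includes known MYC targets, so these shares are not independent of how it was chosen. The 3 stretches shown are the ODC1 and SRM stretches with the motif and, as an example without it, the SAT1 promoter. Capitals mark CACGTG, and each runs 5′ to 3′ on the strand of its gene.
ODC1, chr2:10447983-10448120, minus strand: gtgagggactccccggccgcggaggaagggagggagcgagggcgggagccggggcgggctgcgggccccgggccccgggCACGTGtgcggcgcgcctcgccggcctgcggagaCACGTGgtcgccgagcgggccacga
SRM, chr1:11060025-11060268, minus strand: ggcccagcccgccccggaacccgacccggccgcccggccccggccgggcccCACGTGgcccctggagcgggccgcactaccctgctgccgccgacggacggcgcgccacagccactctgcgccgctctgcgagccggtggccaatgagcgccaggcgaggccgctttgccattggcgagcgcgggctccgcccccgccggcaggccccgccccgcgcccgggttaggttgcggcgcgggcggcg
SAT1, chrX:23782923-23783172, plus strand: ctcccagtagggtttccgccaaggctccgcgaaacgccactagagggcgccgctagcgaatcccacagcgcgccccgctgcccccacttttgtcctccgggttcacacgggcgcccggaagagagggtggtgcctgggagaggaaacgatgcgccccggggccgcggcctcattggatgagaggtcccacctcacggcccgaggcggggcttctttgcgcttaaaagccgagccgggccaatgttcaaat

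The ODC1 stretch lies inside the gene (chromosome 2, 10439968 to 10448504), in an intron of the GENCODE release 29 models and across a RefSeq start inside it, with its motifs at 10448036 to 10448041 and 10448002 to 10448007. The SRM stretch lies upstream of the gene (chromosome 1, 11054584 to 11060024), with its motif at 11060212 to 11060217. The other window of ODC1, at its upstream start, held no CACGTG, nor did the windows of OAZ1, OAZ2, AMD1, SMS and SAT1. Of these genes without a match, AMD1 and SMS fell, and OAZ1, OAZ2 and SAT1 rose. A second motif, TGATGNAA, a core of the elements bound by the stress factor ATF4, was searched on both strands and found in 0 of the 10 windows, against 3.62% of all windows. A match is only a match of letters, and the counts do not show what binds there.

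**Figure D2:**
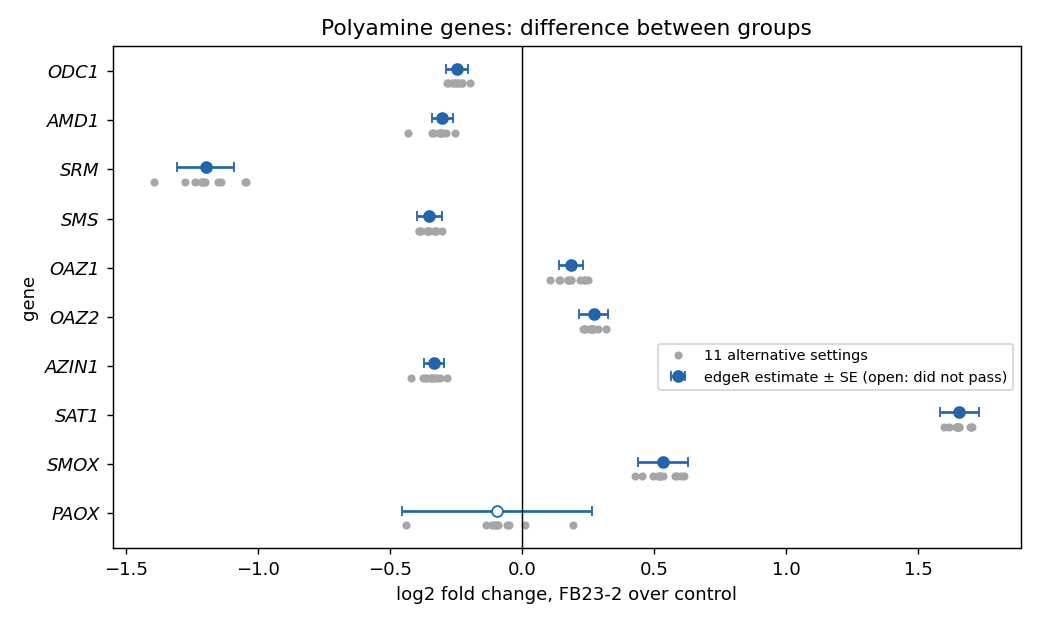
Log2 fold change of each polyamine gene, FB23-2 over control. Large points with bars are the edgeR estimate ± SE, open where the test was not passed, and small grey points are 11 alternative settings. SAT1 at 1.66 and SRM at -1.20 stand apart from the other 8 genes, and for PAOX the estimates fall on both sides of 0.

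The regulators of ODC1 protein moved in opposite directions. OAZ2, the less abundant antizyme, stood at 75.2 and 74.0 CPM with FB23-2, against 62.6 and 61.2 CPM in control. The groups did not overlap, and the log2 fold change came to 0.27 ± 0.05 (edgeR adjusted p = 0.00331). AZIN1, which frees ODC1 from antizyme, stood at 242.8 and 240.7 CPM with FB23-2, against 301.1 and 308.6 CPM in control. It fell to 79.3% of the control level (-0.33 ± 0.04, edgeR adjusted p = 1.23e-04).

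OAZ1, the main antizyme, stood at 646.6 and 594.7 CPM with FB23-2, against 534.6 and 557.4 CPM in control. The lower FB23-2 library lay closer to the higher control library than to the other FB23-2 library. Its rise was the smallest of those called (0.18 ± 0.05, edgeR adjusted p = 0.0106). The call was lost on leaving out FB23-2 replicate 1 (0.10, edgeR adjusted p = 0.113) or else control replicate 1 (0.14, edgeR adjusted p = 0.16), and with no filter on low counts (edgeR adjusted p = 0.0712). Over 11 alternatives the edgeR or DESeq2 adjusted p lay between 0.00237 and 0.16. Antizyme protein is made only when ribosomes shift reading frame on its RNA, which polyamines promote, so RNA counts do not give its protein level. OAZ1 shares 6.9% of its exon bases with JSRP1 on the opposite strand, which averaged 2.35 CPM with FB23-2, against 1.68 CPM in control. AZIN1 shares 5.4% with the antisense gene MAILR, which averaged 2.73 CPM with FB23-2, against 1.47 CPM in control.

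SAT1, the acetyltransferase that limits the rate of polyamine breakdown, had the largest change of the set. It stood at 62.2 and 58.9 CPM with FB23-2, against 19.3 and 19.2 CPM in control. Both FB23-2 libraries lay far above both control libraries, and libraries of 1 group were close to each other. The fitted level was 315% of control. The log2 fold change came to 1.66 ± 0.07 (edgeR adjusted p = 7.65e-07), the 285th highest of 18817 tested genes. SAT1 is known to be spliced into a form with an extra exon that is degraded, and gene counts do not separate the forms.

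SMOX, which turns spermine back into spermidine and releases hydrogen peroxide, stood at 35.9 and 32.1 CPM with FB23-2, against 24.9 and 22.4 CPM in control. The groups did not overlap, and it rose by 0.53 ± 0.09 on the log2 scale (edgeR adjusted p = 0.00149). PAOX, the oxidase of acetylated polyamines, had few counts, 35 and 50 counts with FB23-2 and 30 and 43 counts in control. At 0.916 and 1.44 CPM with FB23-2, against 1.25 and 1.25 CPM in control, the groups overlapped. The log2 fold change of -0.10 ± 0.36 (edgeR adjusted p = 0.862) leaves changes in either direction possible at this depth.

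Levels of different genes were compared per length, as counts per kilobase of merged exons scaled to the same total in each library. TMM scaling was not applied here, so differences between groups on this scale need not match the fitted ones. OAZ1 was the highest of the set on this scale, at 638 ± 28.0 with FB23-2 and 529 ± 28.6 in control (SD, n = 2 each). ODC1 followed at 223 ± 0.0193 with FB23-2 and 250 ± 0.839 in control, then SMS at 163 ± 0.179 with FB23-2 and 196 ± 9.14 in control, and AZIN1 at 133 ± 1.21 with FB23-2 and 158 ± 6.58 in control. These 4 kept their order in both groups, and no neighbours among them overlapped within a group. PAOX was lowest in both groups, at 1.84 ± 0.605 with FB23-2 and 1.82 ± 0.0486 in control.

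The lower ranks changed places between the groups. SAT1 was 6th with FB23-2, at 87.1 and 84.3 per length, and 9th in control, at 25.3 and 26.0 per length. In control the libraries of SAT1 overlapped those of SMOX (27.7 and 25.8) and lay just under those of OAZ2 (26.7 and 27.0). With FB23-2 SAT1 lay above SMOX (42.7 and 39.0) and OAZ2 (34.3 and 34.5). SRM was 7th with FB23-2, at 55.0 and 44.9 per length, and 5th in control, at 112.8 and 104.9 per length. In control SRM overlapped AMD1 (107.2 and 109.2), and with FB23-2 AMD1 lay above it (92.8 and 93.3). With the length of the longest transcript in place of merged exons, SAT1 was 4th with FB23-2 and 7th in control.

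**Figure D3:**
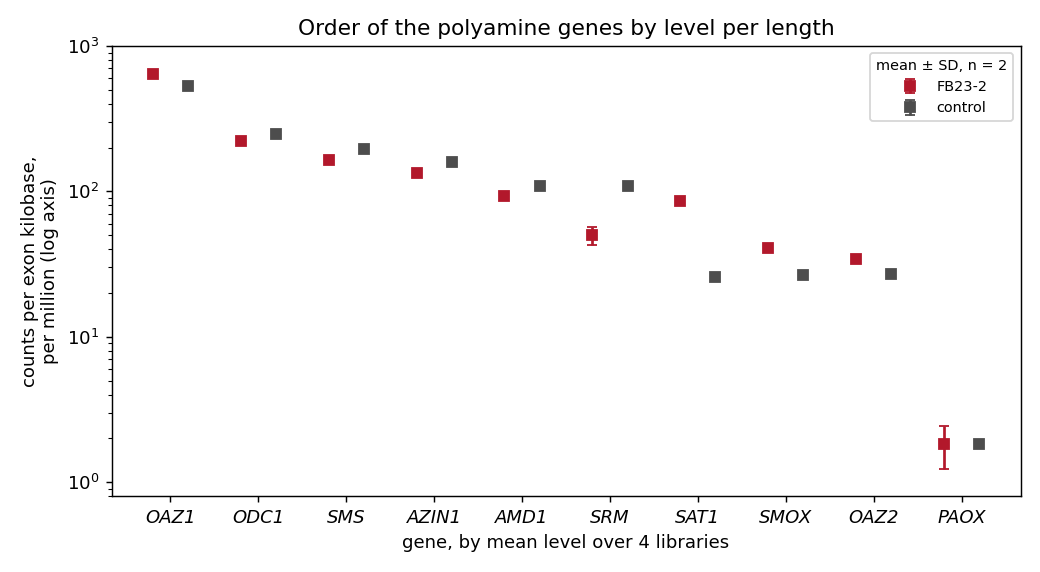
Polyamine genes in the order of their mean level over 4 libraries, as counts per exon kilobase scaled to equal library totals, on a log axis, mean ± SD of 2 libraries, FB23-2 left of control. OAZ1 is highest at 638 with FB23-2 and 529 in control, and SAT1 lies near SMOX and OAZ2 in control but above them with FB23-2.

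Ratios of genes within a library need no scaling between libraries. The ratio of ODC1 to OAZ1 per length was 0.339 and 0.361 with FB23-2, against 0.489 and 0.455 in control. That of AZIN1 to OAZ1 and OAZ2 together was 0.191 and 0.205 with FB23-2, against 0.286 and 0.282 in control. The ratio of SAT1 to ODC1 was 0.39 and 0.378 with FB23-2, against 0.102 and 0.104 in control. The groups did not overlap in any of the 3 ratios, and each gave an exact two-sided permutation p of 0.333, the smallest that 2 libraries against 2 allow. These are ratios of RNA, chosen with the single-gene results known. Each sets a gene that fell against genes that rose, so its separation follows from those results and is no further support.

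Near-copies of these genes had few counts, although how reads shared with them were assigned is not given. Of 10 pseudogenes of these genes by name, 6 had a count of 0 in all libraries. ODCP, the pseudogene of ODC1, had 46 and 49 counts with FB23-2 and 35 and 25 in control, and the others had at most 11 counts in a library. The protein-coding genes nearest to ODC1 in pattern were IKBKB, SET and RBM15B, at distances of 0.0156, 0.0189 and 0.0211. The distance was Euclidean, on log2 CPM relative to the control mean over 4 libraries, among 10549 genes with a mean of 5 CPM or more. With only 4 libraries in 2 groups it mostly ranks genes by the size of their fold change.

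The pathway around these genes was read from 5 further lists and a list of MYC and related factors, here called MYC partners. Of their 49 genes 37 were tested, and 13 rose and 13 fell. Of all tested genes 21.8% rose and 20.3% fell, with a median log2 fold change of 0.00, and each list below is set against these same values. The shares that rose among SAM and hypusine genes, and that fell among transport genes, are near them, and the lists with 3 to 5 tested genes are too short to be read against a share. The 12 that were not tested had at most 16 counts in a library, among them ARG1, AGMAT, OTC, SLC7A2, SLC7A3, MTAP and SATL1. S-adenosylmethionine (SAM) supply and methionine salvage, which feed AMD1 and recycle the by-product of SRM and SMS, had 3 genes higher and 6 lower of 12 tested, with a median log2 fold change of -0.20. MAT2A, the enzyme that makes SAM outside the liver, stood at 193 ± 13.4 CPM with FB23-2, against 414 ± 4.04 CPM in control (-1.10 ± 0.05, edgeR adjusted p = 8.24e-07). AHCY, which clears S-adenosylhomocysteine, fell too (-0.52 ± 0.04), as did MAT1A (-0.60 ± 0.14), the liver form of the SAM enzyme. MAT2A shares 12.4% of its exon bases with GGCX on the opposite strand, which was higher with FB23-2 (0.46). ADI1, a dioxygenase of the salvage pathway, rose to 61.8 ± 1.29 CPM with FB23-2, against 33.3 ± 1.65 CPM in control (0.89 ± 0.07, edgeR adjusted p = 9.72e-06).

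MAT2B, the regulatory partner of MAT2A, rose (0.27 ± 0.06). Its call was lost on leaving out FB23-2 replicate 1 (adjusted p by edgeR 0.06) or control replicate 1 (0.0635), and once trends in GC content and length were taken out (0.0721), and the alternatives spanned 0.00198 to 0.0721. Of the exon bases of GOT1, a transaminase that can complete methionine salvage, 19.3% are shared with GOT1-DT on the opposite strand. GOT1 rose as well (0.32 ± 0.09). Leaving out FB23-2 replicate 1 (adjusted p by edgeR 0.201), control replicate 1 (0.154) or control replicate 2 (0.0621), or using no filter (0.0918), ended its call, and the alternatives spanned 0.00641 to 0.201. Without FB23-2 replicate 1 or without control replicate 1, this list had 1 gene higher instead of 3, and without control replicate 2 it had 4 lower instead of 6. MTAP, the phosphorylase that breaks down the methylthioadenosine left by SRM and SMS, had 2 and 3 counts with FB23-2 and 4 and 0 counts in control. These lie near or under a floor of 3 counts.

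The hypusine list, the genes that use spermidine to modify EIF5A, had 1 gene higher and 2 lower of 4, with a median of -0.26. EIF5A, the modified translation factor, stood at 292 ± 26.9 CPM with FB23-2, against 567 ± 24.5 CPM in control (-0.95 ± 0.07, edgeR adjusted p = 4.16e-05). Its paralog EIF5A2 stood at 31.4 ± 1.52 CPM with FB23-2, against 17.9 ± 1.82 CPM in control (0.80 ± 0.10, edgeR adjusted p = 1.72e-04). As paralogs the 2 genes may share some reads, which was not tested. EIF5A shares 8.6% of its exon bases with GPS2 on the opposite strand, which was higher with FB23-2 (0.48). DOHH, which completes hypusine, fell (-0.40 ± 0.11). Its call was lost on leaving out FB23-2 replicate 1 (adjusted p by edgeR 0.0624) or control replicate 2 (0.137), and once trends in GC content and length were taken out (0.105), and the alternatives spanned 0.00943 to 0.137. In each of those cases 1 gene of the list was lower. DHPS, which starts the modification, was not called (-0.12 ± 0.05, edgeR adjusted p = 0.102). It was called under upper quartile scaling (0.0353), the lowest of alternatives that reached 0.709. DHPS shares 38.5% of its exon bases with another gene model on the same strand (ENSG00000285589, not analysed here), so its level is uncertain too.

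Of the further antizyme, inhibitor and acetyltransferase genes, 2 of 3 tested rose and 0 fell, with a median of 0.48. AZIN2, a relative of AZIN1, stood at 13.6 ± 0.229 CPM with FB23-2, against 8.83 ± 1.11 CPM in control (0.60 ± 0.13, edgeR adjusted p = 0.00494), opposite in direction to AZIN1. SAT2, a paralog of SAT1, rose (0.48 ± 0.12), a call lost on leaving out FB23-2 replicate 1 (adjusted p by edgeR 0.102) or control replicate 2 (0.136), with alternatives that spanned 0.00446 to 0.136. In both cases 1 gene of the list was higher. OAZ3, the antizyme of the testis, stood at 1.73 ± 0.0762 CPM with FB23-2, against 1.48 ± 0.25 CPM in control and did not pass, and SATL1 had 0 counts in all libraries.

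Precursor supply had 1 gene higher and 1 lower of 3 tested, with a median of 0.04. ARG2, the mitochondrial arginase that makes ornithine, stood at 38.4 ± 2.5 CPM with FB23-2, against 22.6 ± 0.895 CPM in control (0.76 ± 0.09, edgeR adjusted p = 1.03e-04). It shares 37.4% of its exon bases with VTI1B on the opposite strand, which averaged 93.9 CPM with FB23-2, against 97.0 CPM in control, so its level is uncertain where counting ignored strand. SLC7A1, an importer of arginine, fell (-0.22 ± 0.04, edgeR adjusted p = 0.00152). Polyamine transport had 2 genes higher and 1 lower of 5 tested, with a median of 0.11. SLC3A2, a transporter heavy chain linked to polyamine export, rose (0.49 ± 0.04, edgeR adjusted p = 1.85e-05) and SLC18B1, a vesicular polyamine transporter, fell (-0.55 ± 0.10, edgeR adjusted p = 0.00134). ATP13A3, a polyamine uptake pump, rose (0.20 ± 0.05). Its call was lost on leaving out FB23-2 replicate 2 (adjusted p by edgeR 0.0731) or control replicate 1 (0.152), and once trends in GC content and length were taken out (0.31), and the alternatives spanned 0.00181 to 0.31. In either case with a library left out, 1 gene of the transport list was higher.

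The list of MYC partners, which holds MYC itself, had 4 genes higher and 3 lower of 10, with a median of -0.05. Besides MYC, MGA (-0.26 ± 0.07) and MLX (-0.18 ± 0.05) fell. Of the exon bases of MLX, 18.1% are shared with PSMC3IP on the opposite strand. The MGA call was lost on leaving out control replicate 2 (adjusted p by edgeR 0.0982, alternatives from 0.00269 to 0.0982). MLX was not called under 5 alternatives, with adjusted p values by edgeR of 0.0618 without control replicate 2, 0.1 without control replicate 1, 0.108 without FB23-2 replicate 2, 0.0635 with library size alone and 0.0607 with no filter. The alternatives spanned 0.00741 to 0.108. The repressors MXD1 (1.35 ± 0.09), MXD3 (1.01 ± 0.12) and MXI1 (0.57 ± 0.07) rose, and so did MXD4. Of the exon bases of MXD3, 22.5% are shared with PRELID1 on the opposite strand, which fell (-0.57), and 18.0% with RAB24 on the same strand, which rose (0.35, edgeR adjusted p = 0.0241). Without control replicate 2, 1 gene of this list was lower, and with upper quartile scaling 5 were.

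**Figure D4:**
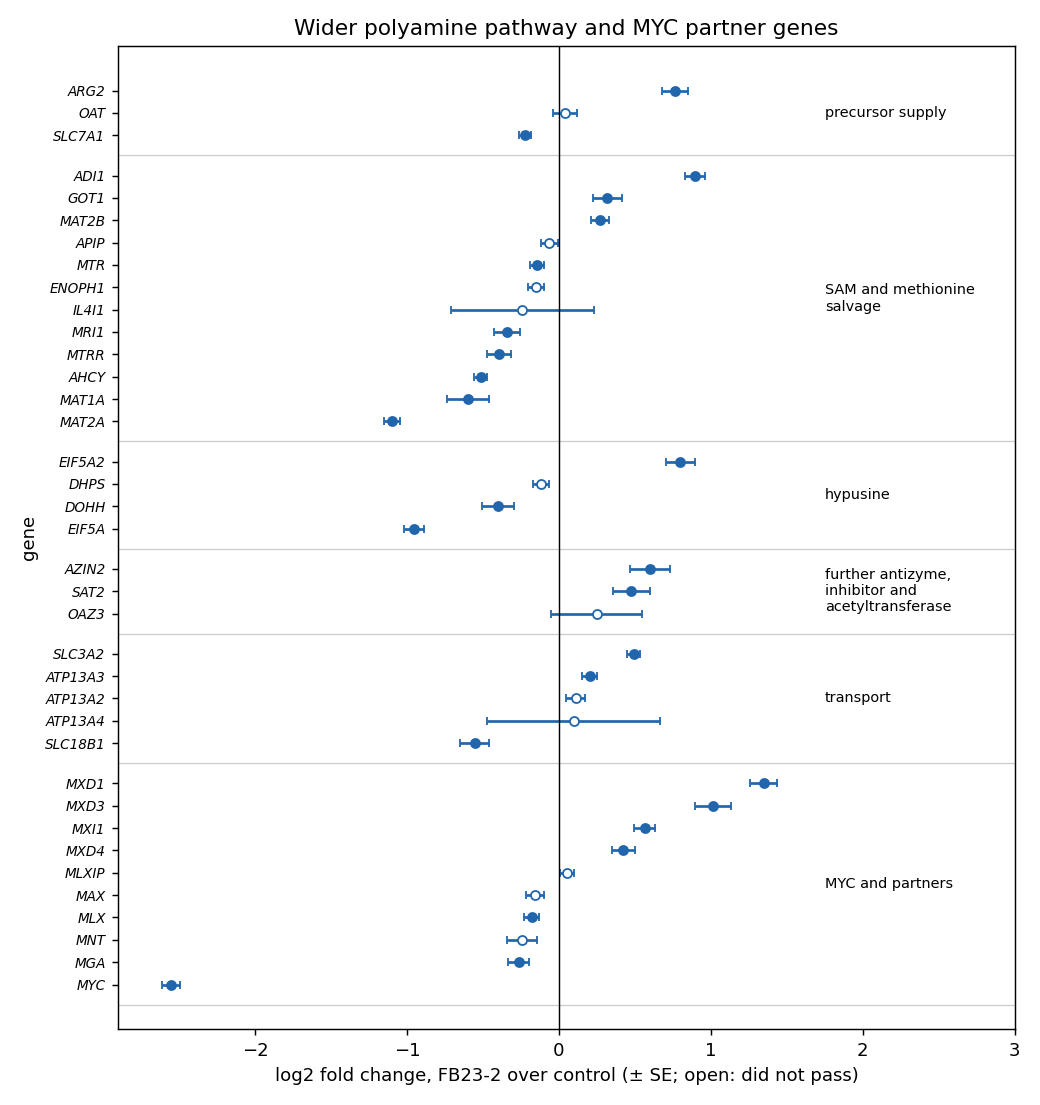
Log2 fold change, FB23-2 over control, of the 37 tested genes of the wider lists, ± SE, filled where the edgeR test was passed and open where it was not. In each list with several genes called both directions occur, except among the further antizyme, inhibitor and acetyltransferase genes, and MYC at -2.55 is the lowest and MXD1 at 1.35 the highest.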

How the data were processed

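The deposited values are raw counts per gene, whole numbers in 1 table of 4 libraries, which the authors did not normalize. The submitters' processing notes list HISAT2 2.2.0, StringTie and hg38. Neither the strand setting nor the annotation and counting step behind the counts is given in the sources used here. Symbols came from a table of gene names. Coordinates, exon lengths and exon overlaps came from GENCODE release 29.

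The filterByExpr function (edgeR 4.0.16, minimum count 10) left 18817 genes, which held 99.9% or more of a library's counts. After TMM scaling, the quasi-likelihood test was run in R 4.3.3, with Benjamini-Hochberg adjustment over all tested genes and a threshold of 0.05. SE is the absolute log2 fold change over the square root of F. The test was first run on simulated counts with known changes. Chi-square per degree of freedom came to 6.69 and 7.48 within groups (genes with at least 20 counts in the pair) and at least 74.6 across groups, so none was a copy of another. A floor of 3 counts corresponds to 0.0794 to 0.122 CPM and covers counting error only.

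The genes, lists and tests were chosen with earlier results of these data known. All 10 genes are described. Each wider list gives up to 3 called genes per direction, by size of change at a mean of 1 CPM or more, plus EIF5A, MAT2A, MTAP and MYC. Other genes were named after their values were seen. Alternatives were RLE scaling, upper quartile scaling, library size alone, no filter, DESeq2 1.42.0, a replicate block, each library left out, and GC and length trends taken out.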

Additional observations from a re-analysis of the deposited data

How the results depend on the processing

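All 5 genes that fell were called lower under each of 11 alternatives, and OAZ2, SAT1 and SMOX were called higher under each. The count of polyamine genes called higher was 4, or 3 with no filter, since OAZ1 did not pass there (0.183, edgeR adjusted p = 0.0712). The OAZ1 call was also lost without FB23-2 replicate 1 (0.104) or control replicate 1 (0.139). With each library left out in turn, OAZ1 ranged from 0.104 to 0.247. PAOX, which was not called, turned to 0.19 without FB23-2 replicate 1, in a range of -0.44 to 0.19 with a library left out, and to 0.011 once trends in GC content and length were taken out. OAT turned to -0.002 with upper quartile scaling and to -0.001 with those trends taken out, and ranged from -0.065 to 0.119 with a library left out. IL4I1 (-0.66 to 0.054) and ATP13A4 (-0.862 to 0.696) also changed sign with a library left out. None of these was called. With a library left out, the genes called over the wider lists were 10 to 12 higher and 8 to 13 lower. For single lists they were 1 to 3 higher and 4 to 6 lower (SAM and methionine salvage), 1 to 2 higher (further antizyme genes, and transport), 1 to 2 lower (hypusine) and 1 to 4 lower (MYC partners). Taking out the trends left 1 hypusine gene lower, and upper quartile scaling gave 5 MYC partners lower. With the longest transcript as length, AZIN1 was 5th, AMD1 6th and SAT1 4th with FB23-2, and SAT1 was 7th and OAZ2 9th in control. The replicate block left the counts of polyamine genes at 4 higher and 5 lower and added calls of ENOPH1 and MAX. Those calls were not particular to the block. ENOPH1 was also called under RLE scaling, under upper quartile scaling and with the GC and length trends taken out. MAX was also called under upper quartile scaling. Without FB23-2 replicate 1, ENOPH1 (-0.218) and MAX (-0.25) were called too. Same-numbered libraries deviated together with a correlation of 0.0623, so the numbers were not taken as pairs. PAOX had few counts even with 24615359 counts or more per library. Only a difference large beside its SE of 0.36 was detectable at this depth. MTAP had at most 4 counts in a library, near or under the floor, and was not tested.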
